A study of Mus musculus with 30 samples.

Results

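Slc15a2, Slc7a10, Slc6a9, Slc6a11, Slc38a3, Slc25a18, Slc7a11 and Slc3a2 encode carriers, or subunits of carriers, that move amino acids and small peptides across the membranes of astrocytes. They were chosen by symbol among the genes annotated as protein-coding and joined by gene identifier to the expression table. This found 8 of 8 genes, out of 30952 genes in the table, 17889 of which were protein-coding. Measured values of these libraries were no part of the rule itself.

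The study asked how an inhibitor of RIPK1, a kinase of inflammatory and cell death signaling, alters spinal cord astrocytes and microglia in experimental autoimmune encephalomyelitis (EAE), an induced autoimmune disease of the central nervous system. All mice were female C57BL/6, and the group of 4 naive mice is described with no treatment beyond that word. EAE mice were immunized with MOG35-55 peptide, at 8 to 10 weeks of age in the study's methods, and dosing began near a clinical score of 1. Dosing was by oral gavage, BID for 3 days, with vehicle (20% Captisol, a modified cyclodextrin) in the group of 6 and with the RIPK1 inhibitor GSK'547 at 50 mg/kg in the group of 5. The 3 groups are called naive, EAE-vehicle and EAE-RIPK1inh. Astrocytes were sorted as GLAST+ CD11b- CD45- CD140a- cells and microglia as CD11b+ CD45int CX3CR1+ cells, which gave 15 libraries of each cell type. GLAST is the product of Slc1a3, itself a glutamate carrier, so the gate used a relative of the genes described here.

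Astrocytes clear neurotransmitter amino acids and peptides from the space around synapses, and they pass glutamine and other building blocks to neurons. Carriers of the SLC6 family couple uptake to sodium and chloride, while the light chains of the SLC7 family exchange one amino acid for another and need a heavy chain to reach the cell surface. SLC15 proteins carry small peptides with protons, and SLC25 proteins sit in the inner mitochondrial membrane.

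Values are log2 FPKM (fragment counts scaled to exon length and library size, on a log scale) as deposited, so levels of different genes are per length. All 30 libraries had been quantile-normalized together and share the same sorted values from 0 to 15.34. Read counts cannot be had from such values, so the depth is unknown. Each library also holds a lowest stretch of values that only follow file order and were taken as no signal, and the number of genes above it ran from 6728 to 22981 in astrocytes and from 8710 to 20398 in microglia. Naive astrocyte library 2 (8815 genes with signal), EAE-vehicle astrocyte library 1 (6728) and EAE-RIPK1inh astrocyte library 5 (9898) were the astrocyte libraries under 10000. Each of the 10 astrocyte markers (among them Aqp4, Gfap and Aldh1l1) had signal in every astrocyte library, and their mean level there was 7.82 to 9.34, against 0.79 to 1.81 in microglia. Slc1a3 was an exception among these markers, with 5.07 to 6.32 in microglia and 4.11 to 6.01 in EAE-vehicle astrocytes.

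Markers of other cell types were also read in the astrocyte libraries, some lists higher and some lower in EAE. The mean level of 9 T cell markers ran from 0.61 to 1.29 in naive, 1.45 to 6.08 in EAE-vehicle and 1.41 to 5.84 in EAE-RIPK1inh astrocytes, with Cd3d, Cd2 and Lck without signal in all 4 naive libraries. The mean of 8 oligodendrocyte markers ran from 5.70 to 7.07, 5.60 to 9.64 and 6.83 to 8.81 in the same order. For 10 monocyte and neutrophil markers it ran from 0.06 to 1.46, 2.21 to 5.33 and 1.54 to 5.63. For 10 microglial markers it ran from 0.90 to 2.60, 2.13 to 3.93 and 2.21 to 3.22. The mean of 6 neuronal markers was 4.76 ± 0.48 (SD, n = 4) in naive, 5.52 ± 0.30 (n = 6) in EAE-vehicle and 4.78 ± 0.54 (n = 5) in EAE-RIPK1inh libraries. Means of the T cell, oligodendrocyte, monocyte and neutrophil, microglial and ependymal lists stood highest in EAE-vehicle libraries as well. The mean of 5 erythrocyte markers ran from 3.88 to 8.67, 0.08 to 7.40 and 0.37 to 6.80 in the 3 groups, and all 5 were lower in EAE-vehicle than in naive means, with a median difference of -2.26. Lower means in EAE-vehicle libraries were also read for 5 of 6 endothelial markers (median difference -0.32) and 4 of 6 pericyte and fibroblast markers (-0.81), and higher means for 4 of 5 ependymal markers (0.30) and 2 of 4 oligodendrocyte precursor markers (0.07). The mean of the 10 astrocyte markers itself was 9.23 ± 0.19 (SD, n = 4) in naive, 8.19 ± 0.33 (n = 6) in EAE-vehicle and 8.72 ± 0.36 (n = 5) in EAE-RIPK1inh libraries. In bulk libraries, fewer astrocytes among the sorted cells and less of a transcript per astrocyte cannot be told apart. Values from libraries each centred on its astrocyte markers are given beside each astrocyte comparison of the 8 genes, and for other genes where that centring ended a call. The part of the other markers in the results was not tested.

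The genes lie on 7 chromosomes of the mouse build GRCm38. Slc15a2 (ENSMUSG00000022899), for a proton-coupled peptide carrier, spans chr16:36750177-36784962 on the minus strand. Slc7a10 (ENSMUSG00000030495), for the light chain Asc-1 that exchanges small neutral amino acids such as serine, alanine, cysteine and glycine, spans chr7:35186385-35201114 on the plus strand. Slc7a11 (ENSMUSG00000027737), for xCT, the light chain of the cystine/glutamate exchanger, spans chr3:49892526-50443614 on the minus strand. Slc3a2 (ENSMUSG00000010095), for the heavy chain 4F2hc (CD98) that both light chains need, spans chr19:8706882-8723369 on the minus strand. Slc6a9 (ENSMUSG00000028542), for the glycine transporter GlyT1, spans chr4:117834506-117875198 on the plus strand. Slc6a11 (ENSMUSG00000030307), for the GABA transporter GAT-3, and Slc25a18 (ENSMUSG00000004902), for a mitochondrial glutamate carrier, lie on the plus strand of chromosome 6 at chr6:114131241-114249952 and chr6:120773578-120794336. Slc38a3 (ENSMUSG00000010064), for the glutamine transporter SNAT3, spans chr9:107650634-107669530 on the minus strand. The deposited annotation marks 6 of the 8 as confounded with another gene, all but Slc38a3 and Slc3a2. Of the 30952 genes in the table, 15717 carry that mark.

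Sequences upstream of the transcript start are shown for the light chains Slc7a10 and Slc7a11, the heavy chain Slc3a2 and the peptide carrier Slc15a2. Of these, 3 were called lower in EAE-vehicle against naive astrocytes and higher with the inhibitor, and Slc7a11 was called in neither comparison. The promoter table of RefSeq (GRCm38.p6) held entries for 7 of the 8 genes, Slc38a3 being the exception. It was searched on both strands, from 250 bases before to 50 bases after each start, for TGATGNAA (the amino acid response element bound by ATF4), TGACNNNGC (the antioxidant response element) and GGGCGG (the GC box). Each line below holds the 100 bases before the start, 5′ to 3′ on the gene's own strand, with letters of a match to one of these motifs in capitals. The start used for Slc3a2 lies inside the gene span given above, while the other starts shown lie at the edge of their spans.
Slc7a11, chr3:50443614-50443713, minus strand: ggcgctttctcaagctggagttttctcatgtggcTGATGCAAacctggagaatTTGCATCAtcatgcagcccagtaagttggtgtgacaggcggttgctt
Slc7a10, chr7:35186285-35186384, plus strand: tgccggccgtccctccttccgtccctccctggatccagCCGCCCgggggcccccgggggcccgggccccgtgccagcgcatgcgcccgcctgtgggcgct
Slc3a2, chr19:8713898-8713997, minus strand: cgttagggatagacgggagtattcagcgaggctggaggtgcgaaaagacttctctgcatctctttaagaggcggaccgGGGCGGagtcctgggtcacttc
Slc15a2, chr16:36784963-36785062, minus strand: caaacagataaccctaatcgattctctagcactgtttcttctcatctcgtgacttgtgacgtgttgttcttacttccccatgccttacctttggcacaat

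Slc7a11 was the only gene of the 7 with a match to the amino acid response element. It held 2 matches on opposite strands, 66 to 59 and 47 to 40 bases before the start, and 3.97% of the 32851 promoters in the table held at least 1. The 7 genes had 9 promoters in the table. The antioxidant response element was matched in 3 of these 9, at Slc6a9 and Slc6a11, beside 12.4% of all promoters. The GC box was matched in 5 of the 9, each of a different gene, beside 35.7% of all promoters. A match is a run of letters and was not tested as a binding site.

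In naive astrocytes, 7 of the 8 genes were read at intermediate to high levels and Slc7a11 at a low one. Slc7a10 stood highest at 10.09 ± 0.97 log2 FPKM (SD, n = 4), followed by Slc3a2 at 9.15 ± 0.54, Slc6a9 at 9.02 ± 1.3, Slc25a18 at 8.33 ± 0.41, Slc6a11 at 7.67 ± 1.92, Slc38a3 at 6.58 ± 2.53 and Slc15a2 at 6.22 ± 0.37. Each of these neighbours differed by less than the larger of their SDs. Slc7a11, at 2.62 ± 0.77, lay below Slc15a2 by more than either SD. The order shifted between groups. In EAE-vehicle astrocytes the mitochondrial carrier Slc25a18 came first at 7.13 ± 0.58 (n = 6) and Slc15a2 last at 1.79 ± 2.03, next to Slc7a11 at 1.96 ± 1.35. In EAE-RIPK1inh astrocytes Slc7a10 was again first at 8.46 ± 1.34 (n = 5) and Slc7a11 again last at 2.22 ± 1.06.

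**Figure D1:**
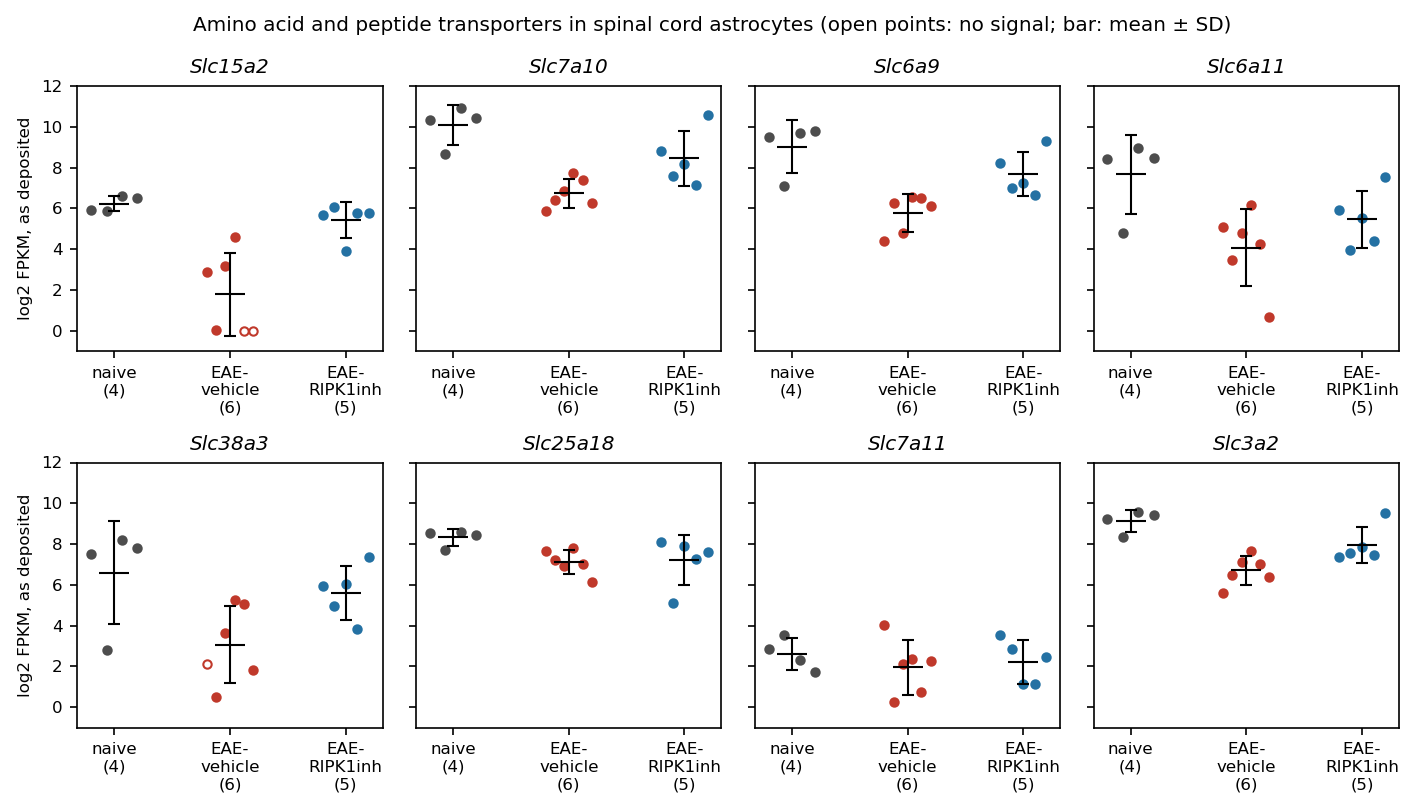
Level of each gene in every astrocyte library (log2 FPKM as deposited, vertical axis) in naive (4 libraries), EAE-vehicle (6) and EAE-RIPK1inh (5) mice, with the mean and SD as bars and open points where the gene had no signal. For Slc7a10, Slc3a2, Slc6a9 and Slc15a2 every EAE-vehicle library lies below every naive one, while the Slc7a11 groups overlap.

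Most of these carriers were lower in EAE astrocytes. Calls use the numerical limits of the study, a fold over 1.5 and a p under 0.05, here with limma's unadjusted p, and 7 of the 8 genes were called in EAE-vehicle against naive astrocytes, all 7 lower. Over the whole table, 4.01% of genes were called lower and 6.71% in either direction. With limma's p adjusted over all 30718 genes tested, 4 of the 8 passed an adjusted p of 0.05, beside 0.238% of all genes in that direction. The median difference of the 8 was -3.29 on the log2 scale, beside 0.03 over all genes tested. The 8 genes were chosen with results of these libraries known, so this count describes them and is no independent evidence.

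The light chain Slc7a10 read 10.34, 8.69, 10.92 and 10.42 in naive libraries 1 to 4, and from 5.86 to 7.71 with a median of 6.61 in the 6 EAE-vehicle libraries. Every diseased library lay below every naive one, as held for 1.28% of all genes. The difference was -3.35 ± 0.61 (SE) on the log2 scale, a 10.2-fold lower value, with an adjusted p of 0.0179 from limma. Its heavy chain Slc3a2 read 9.23, 8.36, 9.58 and 9.41 in naive and from 5.62 to 7.64, median 6.74, in EAE-vehicle libraries. These groups did not overlap either, and the difference was -2.44 ± 0.46 with an adjusted p of 0.0244 from limma. In both cases the exact two-sided permutation test over libraries gave p = 0.00476, the smallest it can give with 4 and 6 libraries.

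The peptide carrier Slc15a2 changed from a gene read in every naive library to one that some diseased libraries did not read at all. It stood at 5.93, 5.89, 6.59 and 6.49 in naive astrocytes, and at 2.90, 0.05, 3.19 and 4.61 in EAE-vehicle libraries 1 to 4, with no signal in libraries 5 and 6. The groups did not overlap, and the difference was -4.43 ± 0.87 (adjusted p = 0.0333 from limma), with 6 of 6 libraries below the naive mean. A fold for values this low rests on the offset used before the logarithm, which the sources used here do not give. The exact permutation p was 0.0143.

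The glycine transporter Slc6a9 also separated the groups, with 9.51, 7.08, 9.70 and 9.80 in naive libraries and 4.38 to 6.55, median 6.20, in EAE-vehicle libraries. Its difference was -3.24 ± 0.65 with an adjusted p of 0.0390 from limma. The GABA transporter Slc6a11 and the glutamine transporter Slc38a3 differed by as much but spread more widely. Slc6a11 read 8.43, 4.80, 8.94 and 8.49 in naive and 0.66 to 6.15, median 4.53, in EAE-vehicle libraries, a difference of -3.60 ± 1.04 (adjusted p = 0.211 from limma). Slc38a3 read 7.51, 2.82, 8.20 and 7.80 in naive and 0.53 to 5.26, median 2.88, in EAE-vehicle libraries, 1 of them without signal, a difference of -3.51 ± 1.14 (adjusted p = 0.320 from limma). For both, naive library 2 lay inside the range of the diseased libraries and the other 3 above it. Without that library the differences were -4.55 for Slc6a11 and -4.76 for Slc38a3.

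The mitochondrial glutamate carrier Slc25a18 changed least among the 7 that were called. It read 8.56, 7.73, 8.61 and 8.44 in naive and 6.16 to 7.81, median 7.12, in EAE-vehicle libraries, so the groups overlapped only at naive library 2 and the highest diseased library. The difference was -1.20 ± 0.51 (adjusted p = 0.595 from limma), and the call was lost without any 1 of naive libraries 1, 3 and 4 or EAE-vehicle libraries 3 and 6, where it was -1.17 to -1.01. Slc7a11 did not pass: it read 2.85, 3.56, 2.32 and 1.75 in naive and 0.24 to 4.04, median 2.19, in EAE-vehicle libraries. Its difference was -0.66 with a 95% interval from -2.25 to 0.93, a range that holds the difference of Slc25a18 as well as no change.

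Centring on the 10 astrocyte markers subtracts their mean from each library. The differences of the markers themselves ran from -3.66 to 2.47, with 8 lower and 2 higher, so they had no common shift. Whether this centring removes a lower share of astrocytes was not tested. On that scale 6 of the 8 stayed called. Slc15a2 was then at -3.40, Slc6a11 at -2.56, Slc38a3 at -2.47, Slc7a10 at -2.31, Slc6a9 at -2.20 and Slc3a2 at -1.40. The difference of Slc25a18 was -0.16 in that scale and no longer called, and that of Slc7a11 turned to 0.38. With only libraries of at least 10000 genes with signal, 7 of the 8 were called.

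Several of these genes were higher in mice given the inhibitor. Between EAE-RIPK1inh and EAE-vehicle astrocytes, 5 of the 8 were called, all 5 higher, beside 1.84% of all genes called higher and 3.02% in either direction. With p adjusted over all genes, none of the 8 passed in limma, where the smallest adjusted p among them was 0.840 and 0 of 30718 genes passed, although 998 (3.25%) had an unadjusted p under 0.05. The median difference of the 8 was 1.55, beside -0.03 over all genes. This comparison shares the EAE-vehicle libraries with the one above, so a low value there lowers the first difference and raises the second, and the values are given side by side only.

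Slc15a2 differed by the most. It read 5.66, 6.05, 3.90, 5.78 and 5.75 in EAE-RIPK1inh libraries 1 to 5, against at most 4.61 in EAE-vehicle libraries. Library 3 alone reached into the vehicle range, and all 5 lay above the vehicle mean. The difference was 3.64 ± 0.82 (unadjusted p = 4.61e-04 and adjusted p = 0.840 from limma), with an exact permutation p of 0.0108.

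Slc6a9 was the member whose groups did not overlap here, as held for 0.107% of all genes in that direction. It read 8.20, 6.98, 7.26, 6.63 and 9.29 with the inhibitor, all above the highest vehicle value of 6.55. The difference was 1.89 ± 0.61 (unadjusted p = 0.00740 from limma), and the exact permutation p of 0.00216 was the smallest that 5 and 6 libraries allow.

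Slc7a10 read 8.83, 7.58, 8.19, 7.12 and 10.57 in EAE-RIPK1inh libraries, of which libraries 2 and 4 lay inside the vehicle range. The difference was 1.71 ± 0.57 (unadjusted p = 0.00895 from limma). Its heavy chain Slc3a2 read 7.35, 7.57, 7.84, 7.48 and 9.54, with libraries 1, 2 and 4 inside the vehicle range, and the difference was 1.25 ± 0.43 (unadjusted p = 0.0109 from limma). In both genes library 5, with fewer genes with signal than the other 4, stood highest, and without it the differences were 1.18 for Slc7a10 and 0.85 for Slc3a2, both still called.

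Slc38a3 read 5.95, 4.95, 6.04, 3.81 and 7.34 with the inhibitor and differed by 2.55 ± 1.07 (unadjusted p = 0.0311 from limma). Its call was lost without any 1 of EAE-vehicle libraries 1, 2 and 6 or EAE-RIPK1inh libraries 1, 3 and 5, with 2.04 to 2.46. Slc6a11 read 5.94, 3.95, 5.52, 4.39 and 7.53, a difference of 1.40 with a 95% interval from -0.69 to 3.48, which was not called. Slc25a18, at 8.12, 5.10, 7.92, 7.29 and 7.61, differed by 0.08 (-0.94 to 1.09), and Slc7a11, at 3.53, 2.85, 1.15, 1.14 and 2.45, by 0.26 (-1.23 to 1.76). For these 3 the intervals hold both no change and a change of 2-fold.

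Centred on the astrocyte markers, 4 of the 8 stayed called: Slc15a2 at 3.10, Slc38a3 at 2.01, Slc6a9 at 1.36 and Slc7a10 at 1.18. Slc3a2, at 0.72, was not, and Slc25a18 and Slc7a11 turned to -0.46 and -0.27. With only libraries of at least 10000 genes with signal 4 of the 8 were called, the call of Slc38a3 (1.93) being lost. With limma's library quality weights the count was 3.

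**Figure D2:**
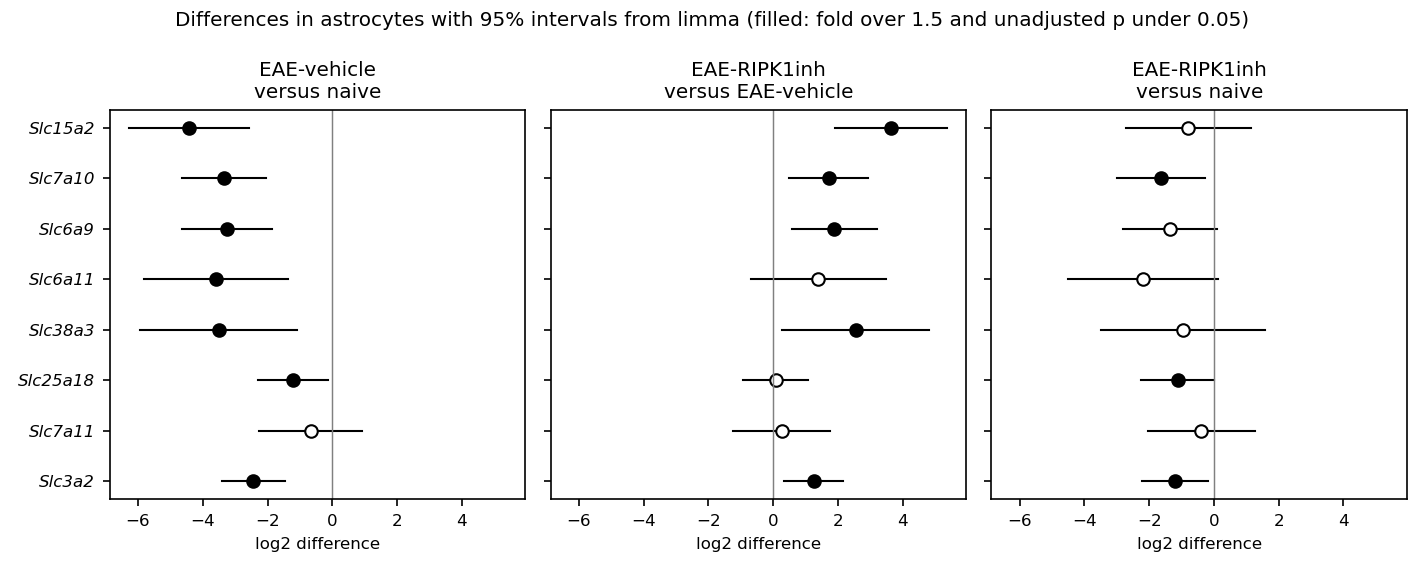
Difference in log2 FPKM with its 95% interval from limma for each gene in 3 astrocyte comparisons, filled where the fold was over 1.5 and the unadjusted p under 0.05. The differences lie to the left of 0 in EAE-vehicle against naive, to the right in EAE-RIPK1inh against EAE-vehicle, and to the left with intervals that mostly reach 0 in EAE-RIPK1inh against naive.

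Against naive astrocytes, treated EAE mice still had lower means for all 8 genes, with a median difference of -1.16. Of these, 3 were called lower, beside 2.64% of all genes: Slc7a10 by -1.64 ± 0.63, Slc3a2 by -1.19 ± 0.48 and Slc25a18 by -1.12 ± 0.53. None of the 3 passed with limma's adjusted p, which was 0.830 or more for all 8. Slc15a2, at -0.79 (95% interval -2.72 to 1.14), and Slc38a3, at -0.96 (-3.49 to 1.56), were not called. The count of 3 moved with single libraries. It was 0 without naive library 3, EAE-RIPK1inh library 2 or EAE-RIPK1inh library 4, and 1 without naive library 1 or 4. It was 6 without naive library 2 and 5 without EAE-RIPK1inh library 5. Centred on the astrocyte markers it was 1, with Slc7a10 at -1.13.

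The heavy chain and its light chains were also set against each other inside each library. A shift common to all log2 values of a library drops out there, while cell makeup does not. In microglia, group means of Slc3a2 were 7.67 to 8.24, while Slc7a10 did not exceed 0.85. Slc7a11 came down to 0.24 in EAE-vehicle astrocytes, where its distance to Slc7a10 also rests on the offset before the logarithm. The part of cell makeup in the differences below was not tested. Slc7a10 exceeded Slc7a11 by 7.48 ± 1.66 log2 units in naive (SD, n = 4), by 4.79 ± 1.74 in EAE-vehicle (n = 6) and by 6.24 ± 1.36 in EAE-RIPK1inh astrocytes (n = 5). The level of Slc3a2 minus that of Slc7a10 was -0.95 ± 0.43 log2 units in naive, -0.04 ± 0.25 in EAE-vehicle and -0.50 ± 0.75 in EAE-RIPK1inh astrocytes. The 4 naive values of that second difference ran from -1.34 to -0.33 and the 6 EAE-vehicle values from -0.39 to 0.28. The ranges met only at their ends, and no test was run on these within-library differences.

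**Figure D3:**
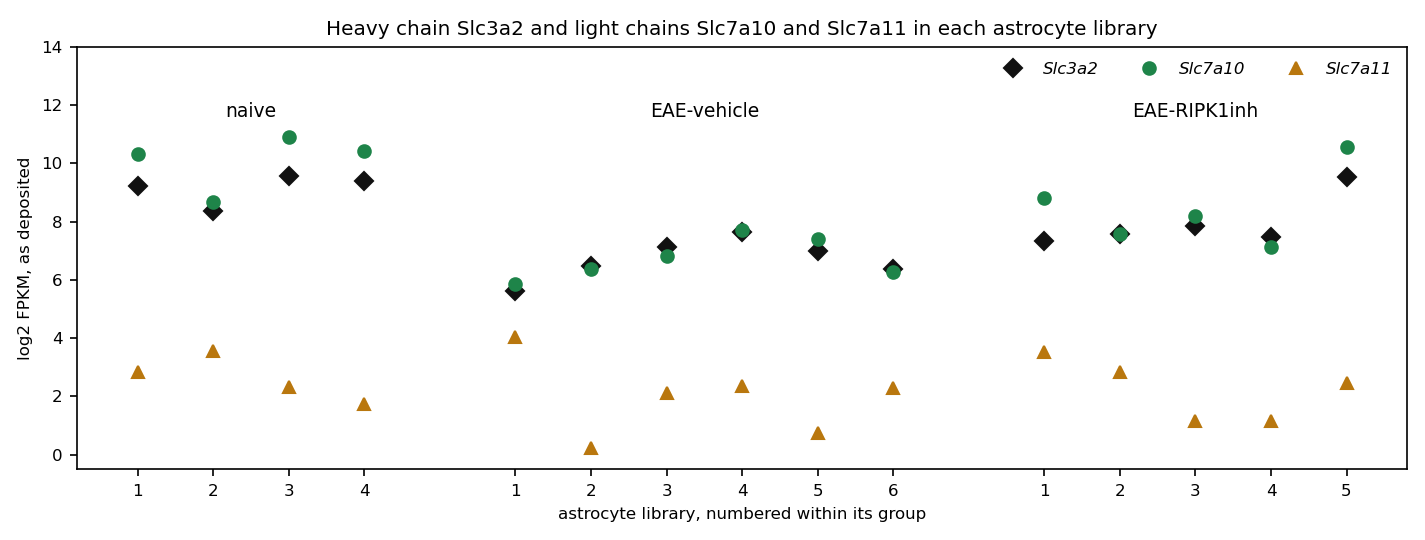
Level of the heavy chain Slc3a2 and the light chains Slc7a10 and Slc7a11 (log2 FPKM as deposited) in each of the 15 astrocyte libraries, in group order. Slc3a2 and Slc7a10 move together from library to library and are lower in EAE-vehicle mice, while Slc7a11 stays between 0.24 and 4.04 in all of them.

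Other light chains that join Slc3a2 were named after their values were seen. In naive, EAE-vehicle and EAE-RIPK1inh astrocytes the means were 2.07, 1.11 and 1.41 for Slc7a5 (LAT1), 1.21, 2.96 and 1.44 for Slc7a6, 0.67, 0.11 and 0.80 for Slc7a7, and 0.01, 1.61 and 0.87 for Slc7a8 (LAT2). Slc7a8 was called higher in EAE-vehicle astrocytes, by 1.60, from 1 of 4 naive to 5 of 6 EAE-vehicle libraries with signal. In microglia Slc7a8 stood at 6.13 ± 1.49 in naive and 4.21 ± 0.50 in EAE-vehicle mice, above its level in any astrocyte group. Microglial markers were higher in EAE astrocyte libraries as given above, and their part in the rise of Slc7a8 was not tested.

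Within the groups, the genes varied together to different degrees. Once group means were removed over the 15 astrocyte libraries, the 28 pairs had a median Pearson r of 0.41, with 11 pairs above 0.5 and 6 below 0. Slc7a10 with Slc3a2 had the highest, at 0.88, then Slc7a10 with Slc6a9 at 0.86 and Slc7a10 with Slc38a3 at 0.84. All 6 pairs below 0 but 1 involved Slc7a11, and the other was Slc15a2 with Slc6a9 at -0.12. These are descriptions, since the points share libraries, normalization and the markers above.

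The genes whose levels followed each member most closely over the 15 astrocyte libraries, groups included, were sought among 2627 or 2628 protein-coding genes with signal in all 15 and a mean of at least 3. Slc7a10 was closest to Bcan (Pearson r = 0.98), the gene for the matrix proteoglycan brevican, Slc6a9 to F3 (0.95), the gene for tissue factor, and Slc38a3 to Gpr37l1 (0.89) and then to Slc7a10 itself (0.88). Slc3a2 was close to Atp1b2 (0.97), for a subunit of the sodium pump. Slc15a2 was closest to Ncam1 (0.88), Slc6a11 to Acsl6 (0.88), Slc25a18 to Nptn (0.89) and Slc7a11 to Ppp6r2 (0.90).

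Microglia carried little of most of these transcripts, apart from Slc3a2. In microglia, Slc7a10, Slc6a11 and Slc25a18 did not exceed 0.85, 0.61 and 0.62 in any of the 15 libraries, and Slc38a3 did not exceed 1.20. Signal was read in 4, 6, 5 and 3 of the 15 libraries respectively. Slc6a9 reached 3.14 and had signal in 1 of 4 naive, 3 of 6 EAE-vehicle and 4 of 5 EAE-RIPK1inh libraries. Slc7a11 reached 1.99. Slc15a2 was read in 13 of 15 libraries, with means of 1.71 ± 1.51, 1.31 ± 1.52 and 1.53 ± 0.99 in naive, EAE-vehicle and EAE-RIPK1inh microglia.

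Slc3a2 was the member read at high levels in microglia, with 8.49, 8.31, 8.72 and 7.44 in naive libraries, 7.44 to 7.95 with a median of 7.61 in EAE-vehicle libraries, and 7.54, 7.20, 7.79, 8.03 and 8.35 in EAE-RIPK1inh libraries. In naive mice it was higher in astrocytes than in microglia by 0.91 ± 0.42 (unadjusted p = 0.0384 and adjusted p = 0.204 from limma over 30 libraries), a call lost without any 1 of naive astrocyte libraries 1, 3 and 4 or naive microglia libraries 2 and 4, with 0.64 to 0.93. In EAE-vehicle mice it was lower in astrocytes by -0.97 ± 0.34 (adjusted p = 0.0590 from limma), with all 6 astrocyte libraries below the microglial mean. With the inhibitor the difference was 0.18, with a 95% interval from -0.59 to 0.94.

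In all, 8 of the 8 genes were called higher in astrocytes than in microglia in naive mice, beside 9.64% of all genes, and 7 passed an adjusted p of 0.05 from limma, beside 5.93% of all genes. In EAE-vehicle mice 6 were called, 5 higher and Slc3a2 lower, beside 22.4% of all genes called in either direction, 10.0% higher and 12.4% lower. Slc15a2 was not called there, with 1.79 ± 2.03 in astrocytes and 1.31 ± 1.52 in microglia. In EAE-RIPK1inh mice 7 were called higher, beside 10.0% of all genes. The 8 genes were chosen as carriers of astrocytes, with earlier results of these data known. These counts between cell types therefore describe them and are no independent evidence.

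**Figure D4:**
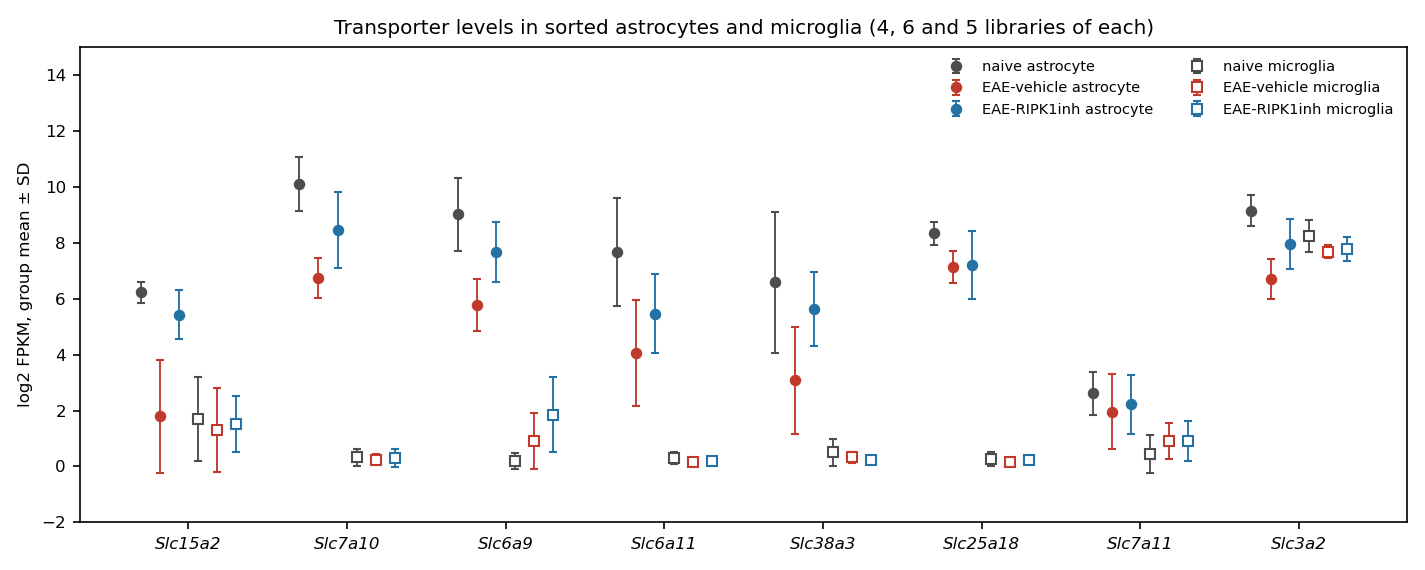
Group means and SDs (log2 FPKM) of the 8 genes in sorted astrocytes (filled circles) and microglia (open squares) of naive, EAE-vehicle and EAE-RIPK1inh mice. Microglial means stay below 2 for every gene but Slc3a2, which lies between 7.67 and 8.24 there.

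Neither comparison within microglia called any of the 8, beside 12.0% of all genes for EAE-vehicle against naive and 1.76% for EAE-RIPK1inh against EAE-vehicle. Slc3a2 in EAE was the one member with an unadjusted p under 0.05 in limma, as held for 13.5% of all genes there (3899 genes), and none had one with the inhibitor, beside 2.87% (832 genes). Its difference was -0.56 ± 0.26, a fold under 1.5, with an exact permutation p of 0.0619 and 6 of 6 EAE-vehicle libraries below the naive mean. It was called at -0.83 without naive microglia library 4, and at -0.62 without EAE-vehicle microglia library 4 or 5. Slc6a9 was called higher with the inhibitor, at 1.40, without EAE-RIPK1inh microglia library 2.

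Whether astrocytes and microglia responded differently was tested as an interaction, in 1 limma fit over all 30 libraries. For EAE, 6 of the 8 were called with a more negative change in astrocytes, beside 4.97% of all genes, and Slc7a10 at -3.27 ± 0.69 (adjusted p = 0.0143 from limma) and Slc6a9 at -3.95 ± 0.94 (adjusted p = 0.0342 from limma) passed the adjusted p, beside 0.604% of all genes in that direction. Slc7a10, Slc6a9, Slc6a11 and Slc38a3 stood at 0.33, 0.21, 0.30 and 0.52 in naive microglia, where hardly any fall could be read. Slc15a2 stood at 1.71 ± 1.51 there, so a fall as large as its astrocyte difference of -4.43 could not be read either. The interactions of these genes largely repeat the astrocyte differences and cannot decide whether microglia responded differently. Slc3a2, the member read at high levels in both cell types, had -1.88 ± 0.54 (adjusted p = 0.0967 from limma). For the inhibitor, 4 were called with a more positive change in astrocytes, beside 1.66% of all genes: Slc15a2 at 3.41, Slc38a3 at 2.62, Slc7a10 at 1.65 and Slc3a2 at 1.14. None of these passed limma's adjusted p, which was 0.948, nor did any gene in the table, although 3.44% (1066 genes) had an unadjusted p under 0.05. The 4 calls fell to 1 without EAE-RIPK1inh astrocyte library 5 and to 0 with quality weights. Slc38a3 and Slc7a10 stood at 0.32 and 0.25 in EAE-vehicle microglia. Their inhibitor interactions largely repeat the astrocyte differences of 2.55 and 1.71. Slc6a9, at 1.89 in astrocytes and 0.94 in microglia, had an interaction of 0.95 with the inhibitor and was not called.

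Other amino acid and peptide carriers did not move as one. Of 62 in the table, 8 were called in EAE-vehicle against naive astrocytes, 6 lower and 2 higher, beside 6.71% of all genes called in either direction, with a median difference of 0.00. The count was 17 with quality weights and 26 with libraries centred on the astrocyte markers. That centring raises every EAE-vehicle value against naive by the gap between the marker means of 8.19 and 9.23, also for carriers near 0. The neutral amino acid carrier Slc1a4 (ASCT1) fell by 4.27 on the log2 scale (adjusted p = 0.177 from limma) and the lysosomal cystine exporter Ctns by 4.23 (adjusted p = 0.00787 from limma). Ctns then stood at 0.18 in EAE-vehicle astrocytes, so the size of its fall rests on the offset before the logarithm. The glutamate carriers Slc1a3 (GLAST, -1.94) and Slc1a2 (GLT-1, -1.55), both also astrocyte markers here, were called lower as well. Slc43a3, for a carrier of purine bases, was called higher by 2.63, from 0.34 to 2.97. With the inhibitor, 3 of the 62 were called, beside 3.02% of all genes, 2 higher, among them Slc1a4 by 2.42, and 1 lower, Slc43a3 at -2.31. The call of Slc1a4 was lost without any 1 of EAE-vehicle libraries 1, 2, 4 and 6 or EAE-RIPK1inh libraries 1, 3, 4 and 5 (1.76 to 2.58), as well as with marker centring (1.88) and with only libraries of at least 10000 genes with signal (1.51). The count of 3 was 5 with only those libraries, 6 with marker centring, 7 with quality weights and 9 with all libraries in 1 fit. Against naive astrocytes, the treated mice had 4 of 62 called, 1 of them higher. The 3 called lower, beside 2.64% of all genes called lower, included Ctns at -3.75 and Slc1a3 at -2.11.

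Of 28 enzymes of glutamate, glutamine, glycine and GABA in the table, 8 were called in EAE-vehicle astrocytes, all 8 lower, beside 4.01% of all genes called lower, with a median of -0.35 over the list. The alanine aminotransferase Gpt differed by -3.90 (adjusted p = 0.0161 from limma) and the succinic semialdehyde dehydrogenase Aldh5a1 by -2.72 (adjusted p = 0.322), a call that ended with marker centring at -1.69. Glul, the glutamine synthetase of astrocytes, which was named after its values were seen, stood at 8.77 ± 0.13 in naive, 8.67 ± 0.48 in EAE-vehicle and 8.62 ± 0.52 in EAE-RIPK1inh astrocytes. With the inhibitor 3 of the 28 were called, all higher, beside 1.84% of all genes, among them the serine racemase Srr at 2.08 and the glutamate carboxypeptidase Folh1 at 1.79, a call lost without any 1 of EAE-vehicle libraries 1, 2 and 4 or EAE-RIPK1inh libraries 3, 4 and 5 (1.27 to 1.89). Both calls ended with marker centring, at 1.54 for Srr and 1.25 for Folh1, and with only libraries of at least 10000 genes with signal, at 1.26 and 0.97. Gpt in treated mice stood at -4.90 against naive (adjusted p = 0.00682 from limma). Its mean in EAE-RIPK1inh astrocytes was 0.15, so the size of that difference rests on the offset before the logarithm.

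Slc7a11 feeds glutathione synthesis with cystine and is itself a known target of the ATF4 amino acid response, and both sets of genes were counted. Of 25 glutathione and cystine genes, 5 were called in EAE-vehicle astrocytes, 3 higher and 2 lower, beside 6.71% of all genes in either direction. Gpx1, for a glutathione peroxidase, rose by 2.16 and Txn1, for thioredoxin, by 1.26, while Slc33a1, for a carrier of the endoplasmic reticulum, stood at -3.10 and the cystathionine synthase Cbs at -1.08, and with the inhibitor 0 of 25 were called, or had an unadjusted p under 0.05, in limma. Txn1 lost its call without naive library 3 or 4 or EAE-vehicle library 3, 5 or 6 (0.66 to 1.27), and Cbs without naive library 4 or EAE-vehicle library 5 (-0.92 to -0.91) and with marker centring (-0.047). Of 30 ATF4 response genes, 3 were called in EAE-vehicle astrocytes, 2 higher and 1 lower, beside the same 6.71%. Nupr1, a stress-induced chromatin factor without signal in all 4 naive libraries, read 6.81 ± 0.50 in EAE-vehicle astrocytes (adjusted p = 4.79e-04 from limma) and 4.73 ± 2.07 with the inhibitor. Microglia read it at 7.89 ± 1.05 in naive mice, and microglial markers were higher in EAE astrocyte libraries as given above, and their part in its rise was not tested. Eif4ebp1, for a repressor of translation, was higher by 2.36, a call that ended with only libraries of at least 10000 genes with signal (1.83), and Vegfa, for a growth factor of blood vessels, differed by -2.88. With the inhibitor, Nupr1 (-2.08) and Ddit4 (1.5) were called, beside 3.02% of all genes. Nupr1 stood at -1.07 with only libraries of at least 10000 genes with signal, still called. Ddit4 was not called there (1.13), with marker centring (0.97) or without any 1 of EAE-vehicle libraries 1 and 2 or EAE-RIPK1inh libraries 1, 3, 4 and 5 (1.09 to 1.54).

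**Figure D5:**
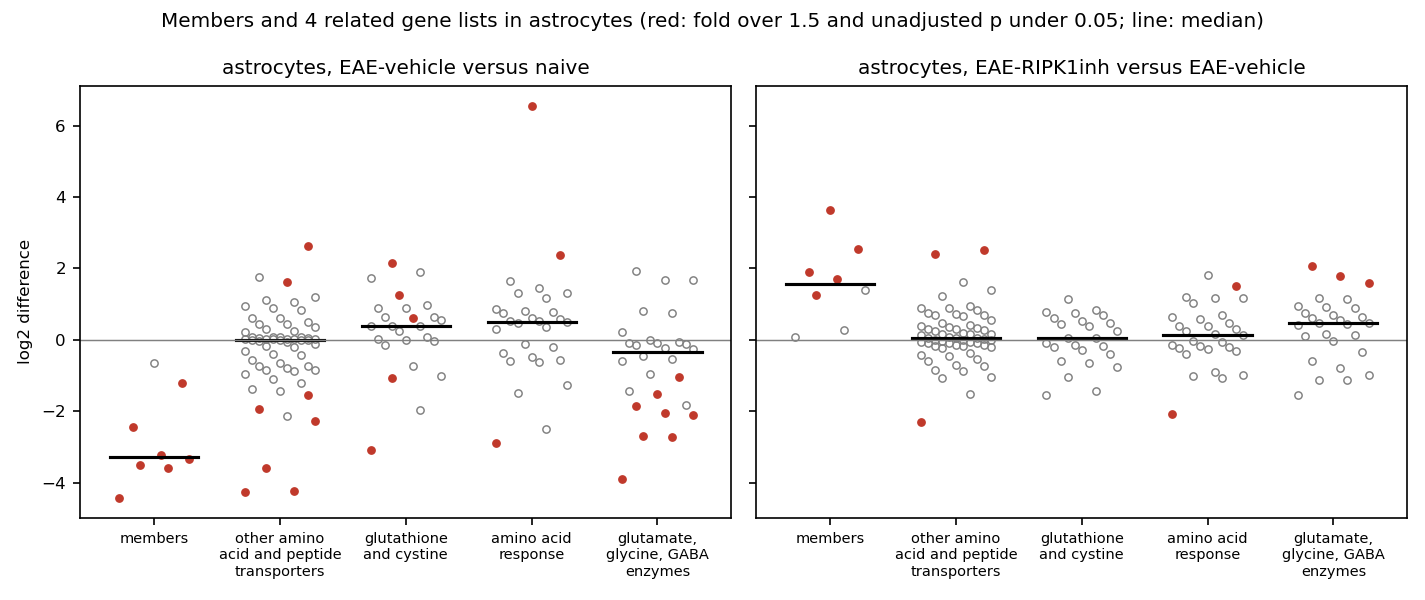
Difference in log2 FPKM of each of the 8 genes and of each gene in 4 related lists for 2 astrocyte comparisons, with called genes in red and the median of each list as a line. The 8 genes have a median of -3.29 in EAE-vehicle against naive and 1.55 in EAE-RIPK1inh against EAE-vehicle, while the medians of the 4 lists lie between -0.35 and 0.51.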

How the data were processed

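RNA of sorted spinal cord astrocytes and microglia was sequenced in 30 libraries, 15 of each cell type, with 4 naive, 6 EAE-vehicle and 5 EAE-RIPK1inh libraries in each, and libraries were grouped by their deposited titles. The authors aligned and quantified the reads in OmicSoft Array Studio 10.1.1.3 and deposited log2 FPKM values, which were quantile-normalized over all 30 libraries as tested on the file. The offset before the logarithm and the aligner are not given in the sources used here. Depth is unknown, so no counting error was computed.

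Group differences were computed in R 4.3.3 with limma 3.58.1 (lmFit, eBayes with a trend) on the values as deposited. Each cell type was fitted alone with its 3 groups, while comparisons between cell types and interactions used a fit of all 30 libraries. Genes with identical values in all libraries of a fit were left out. P-values were adjusted by Benjamini-Hochberg over all genes tested. Single genes were also tested by exact two-sided permutation over libraries. The labels number libraries within a group and do not name animals, so p-values measure the spread between libraries. The paper gives the same numbers of mice for both cell types. Fits of all 30 libraries may thus treat both libraries of a mouse as independent. The study's methods name a paired test without saying what is paired, so no block was used. The fits were tested on simulated data.

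The 8 genes, the 4 related lists and the marker lists were chosen with earlier results of these data known. The genes named from a list are its largest rises and falls among genes called with a mean of at least 1 (3 each for other transporters, 2 each for the others), and the nearest patterns are by Pearson r. A gene among these is not reported here. Alternatives were a filter at a mean of 1, median centring, a larger offset (1), no-signal values at 0, quality weights, no variance trend, a replicate block, 1 fit of all libraries and leaving out each library. Leaving out libraries under 10000 genes with signal and centring on astrocyte markers were added after seeing the data. Promoters were read with Python 3.11.15 from RefSeq (GRCm38.p6), and gene positions matched GENCODE vM21 for all 8. Protein sequences were not used here.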

Additional observations from a re-analysis of the deposited data

Results flagged for a closer look

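For 7 of 38 gene and group combinations of 4 to 6 libraries, 1 library stood apart from its group by Dixon's criterion, which chance meets in about 1 in 20 groups. Naive astrocyte library 2 was the low value of 3 of them, with 7.08 for Slc6a9, 4.80 for Slc6a11 and 2.82 for Slc38a3, and it had 8815 genes with signal, the fewest of the 4 naive astrocyte libraries. EAE-RIPK1inh astrocyte library 5 was the high value for Slc3a2 at 9.54, and it had 9898 genes with signal, the fewest of its group, with a mean of 9.26 over the astrocyte markers, the highest of its group. EAE-RIPK1inh astrocyte library 3 was low for Slc15a2 at 3.90, and EAE-RIPK1inh astrocyte library 2 was low for Slc25a18 at 5.10. In microglia, EAE-vehicle library 3 was high for Slc15a2 at 4.16. The part of depth or cell makeup in these values was not tested.

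The interaction of EAE with cell type had limma's adjusted p under 0.05 for Slc7a10, at -3.27, and for Slc6a9, at -3.95. In microglia, Slc7a10 had signal in 4 of 15 libraries and reached at most 0.85, and Slc6a9 had signal in 8 of 15 and reached at most 3.14. Their means in naive microglia were 0.33 and 0.21, where hardly any fall could be read. These interactions cannot decide whether microglia responded differently.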

How the results depend on the processing

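With p and fold limits kept, 7 members were called in EAE-vehicle against naive astrocytes under every alternative but 2, the replicate block and centring on astrocyte markers, which gave 6, and leaving out 1 library gave 6 to 7. Other transporters went from 8 to 17 with quality weights and 26 with marker centring. For EAE-RIPK1inh against EAE-vehicle astrocytes, members went from 5 to 3 with quality weights and to 4 to 5 without 1 library. Other transporters there went from 3 to 7 with quality weights, 9 with all libraries in 1 fit, 5 with only libraries over 10000 genes with signal, 6 with marker centring, and 1 to 6 without 1 library (5 without EAE-vehicle library 2 or 4 or EAE-RIPK1inh library 3, 6 without EAE-RIPK1inh library 2 and 1 without EAE-RIPK1inh library 1). Against naive, treated astrocytes had 3 members called in the fit reported, 5 with a mean of at least 1, 6 with quality weights, 6 with only libraries over 10000 genes, 1 with marker centring and 0 to 6 without 1 library. Other transporters there went from 4 to 11 with quality weights, 8 with all libraries in 1 fit, 10 with marker centring and 2 to 5 without 1 library (2 without naive library 4). In microglia the count of 0 became 1 for EAE with quality weights or with only libraries over 10000 genes, 1 for the inhibitor with quality weights, and 0 to 1 without 1 library in both. The inhibitor interaction went from 4 to 0 with quality weights and 1 to 4 without 1 library. Marker centring shifts all genes of a library alike, as given above, and the causes of these moves were otherwise not tested.

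Signs turned only for members that had not been called. With marker centring Slc7a11 read 0.38 (EAE-vehicle against naive), -0.27 (inhibitor) and 0.11 (treated against naive), and Slc25a18 -0.46 (inhibitor). With quality weights Slc7a11 read -0.042 for the inhibitor, and in the interaction Slc6a9 read -0.015 and Slc7a11 -0.40. No-signal values at 0 gave -0.050 for Slc25a18 in the interaction, and median centring -0.0071 for Slc7a11 in microglia with the inhibitor. With only libraries over 10000 genes, Slc15a2 read 0.19 in microglia (EAE) and Slc3a2 -0.22 between cell types in treated mice. Without 1 library, the inhibitor difference ran from -0.15 to 0.60 for Slc25a18 and -0.081 to 0.68 for Slc7a11 in astrocytes. In microglia it ran from -0.051 to 0.80 for Slc15a2, -0.17 to 0.24 for Slc7a11 and -0.035 to 0.25 for Slc3a2, and the EAE difference of Slc15a2 from -0.98 to 0.19. Between cell types Slc15a2 ran from -0.079 to 1.06 in EAE-vehicle mice and Slc3a2 from -0.22 to 0.33 in treated mice. The inhibitor interaction ran from -0.21 to 0.54 for Slc25a18 and -0.091 to 0.67 for Slc7a11.

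For libraries with the same number, deviations from group means correlated between -0.16 and 0.14. Such values cannot decide whether some of these libraries came from the same mouse. With the replicate block, 6 members were called in EAE-vehicle against naive astrocytes, 5 with the inhibitor and 5 against naive (Slc6a9 at -1.66 and Slc6a11 at -2.40 were added). It called 0 in either microglial comparison, 8, 6 and 6 between cell types, and 6 and 4 in the interactions. Slc25a18 with the inhibitor read -0.12 and Slc7a11 in microglia -0.034. Depth is unknown for these values, so a gene without signal may have been missed or not expressed.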
